A study of Mus musculus with 14 samples.

Results

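The TAM receptor tyrosine kinases Tyro3, Axl and Mertk and their ligands Gas6 and Pros1 (protein S) were followed across a course of BRAF inhibition in mouse melanoma. The 5 genes were chosen by name, ignoring letter case, and each has 1 row among the 18481 genes of the deposited expression table, giving 3 receptors and 2 ligands in all 14 tumours.

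TAM receptors sit on the cell surface and are switched on by Gas6 or Pros1, secreted proteins that bind phosphatidylserine on dying cells with one end, after vitamin K-dependent gamma-carboxylation, and the receptor with the other. Gas6 binds all 3 receptors, Axl most tightly, whereas Pros1 binds Tyro3 and Mertk and is also a plasma anticoagulant. Mertk and Axl on phagocytes take part in the clearance of dying cells and restrain inflammation, and Axl is known in melanoma as a receptor of undifferentiated cells that tolerate BRAF inhibitors.

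Female C57BL/6J mice aged 6 to 8 weeks carried tumours grown under the skin from SMM102 mouse melanoma cells, injected at 2 sites per mouse, and RNA was sequenced from whole frozen tumours. Treatment began at 150 to 300.0 mm3 and was either PLX4032 (vemurafenib, an inhibitor of mutant BRAF kinase) at 50 mg/kg, injected into the peritoneum 5 days per week, or no drug: the controls are labelled untreated, and the design text names them vehicle. There were 2 control tumours each at days 3 and 6, and PLX4032 groups of 2 tumours at days 3, 6 and 18 and of 4 at day 27. The 4 day 27 tumours were the left and right tumours of 2 mice and could not be tied to their mice in the table, so they were treated as separate samples and their p-values are too small. For days 3, 6 and 18 the labels do not say that every tumour came from its own mouse. All comparisons share 1 estimate of the spread between tumours, pooled over the 6 groups, so the pairing at day 27 enters every p-value. The p-values of days 3, 6 and 18 therefore do not measure the spread of those days' tumours alone, and take no account of shared mice. The labels of a day 6 control and a day 3 treated tumour share 1 animal number. No controls were taken after day 6, so treatment and time cannot be told apart at days 18 and 27.

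Values are the deposited signal, a TPM-like measure of transcripts per length that the authors rescaled between tumours; columns summed to between 879385 and 1084401, and the read depth is unknown. Changes are differences in mean log2(signal + 1) tested with limma over 15841 genes, and called at a Benjamini-Hochberg adjusted p under 0.05; this scale understates the change of low genes. Some tumours stood apart in the RNA of other cells. The summed signal of 14 macrophage and monocyte markers was 6236 and 11436 in the day 3 treated tumours, against 574 to 1537 in the controls. That of 5 adipocyte markers was 2529 and 2412 in the day 18 tumours, against 14.3 to 55.3 in the controls. Of 7 melanocyte markers, Mitf, Sox10 and Pmel summed to only 3.29 to 5.33 in the controls, and Tyr, Tyrp1, Dct and Mlana had no row among the genes used here.

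The promoters of Axl and Gas6, the most abundant member and the most variable one, show what sequence lies before each start. Both are the 250 bases before the RefSeq gene start (GRCm38.p6), on the minus strand, at chr7:25788734-25788983 for Axl and chr8:13494536-13494785 for Gas6; neither window holds a GENCODE exon. Capitals mark GGGCGG, the GC box bound by Sp1-type factors, read on either strand, and in Axl also GGAATG, the core letters of the TEAD motif.
Axl: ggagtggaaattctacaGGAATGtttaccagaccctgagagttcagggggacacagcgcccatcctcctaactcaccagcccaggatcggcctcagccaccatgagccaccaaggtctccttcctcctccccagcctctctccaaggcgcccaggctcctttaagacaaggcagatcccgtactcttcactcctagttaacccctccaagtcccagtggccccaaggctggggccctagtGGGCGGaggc
Gas6: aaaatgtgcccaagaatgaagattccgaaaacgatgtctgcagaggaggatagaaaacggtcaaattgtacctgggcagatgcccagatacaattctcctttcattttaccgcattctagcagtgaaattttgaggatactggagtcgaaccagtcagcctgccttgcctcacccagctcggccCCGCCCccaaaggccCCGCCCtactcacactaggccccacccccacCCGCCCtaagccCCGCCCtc
Axl held 1 GC box, starting 10 bases before the gene start, and 1 TEAD match, 233 bases before it; 12.6% of 32851 mouse promoters of the same length hold that TEAD string on either strand. Gas6 held 4 GC boxes, 66, 51, 20 and 8 bases before its start, and Mertk, Tyro3 and Pros1 held 3, 3 and 5, against 32.7% of promoters with at least 1. The Tyro3 window lies inside the GENCODE gene and holds a Tyro3 exon, so its GC boxes are not all-upstream sequence by that annotation. The AP-1 letters TGANTCA (6.75% of promoters) and the LXR DR4 repeat (0.0152%) matched none of the 5 windows on either strand. A match is a description of the letters and was not tied to binding here.

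Across the 14 tumours, Axl was by far the most abundant member per length and Gas6 the most variable. The mean Axl signal ranked 356 of 18481 genes, and Axl varied little, with a coefficient of variation of 12.6%. Pros1 (rank 3532) varied as little, at 12.4%, and Mertk (rank 5163) and Tyro3 (rank 7464) at 21.3% and 23.3%. For Gas6 (rank 4099) the coefficient of variation was 149%, above that of 99.7% of the 2987 genes whose mean lay within 1.5-fold of its own, whose median was 16.9%. No member was at 0 in any tumour. Whether groups overlapped is given below as description, since the share of all genes whose groups do not overlap was not counted.

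**Figure D1:**
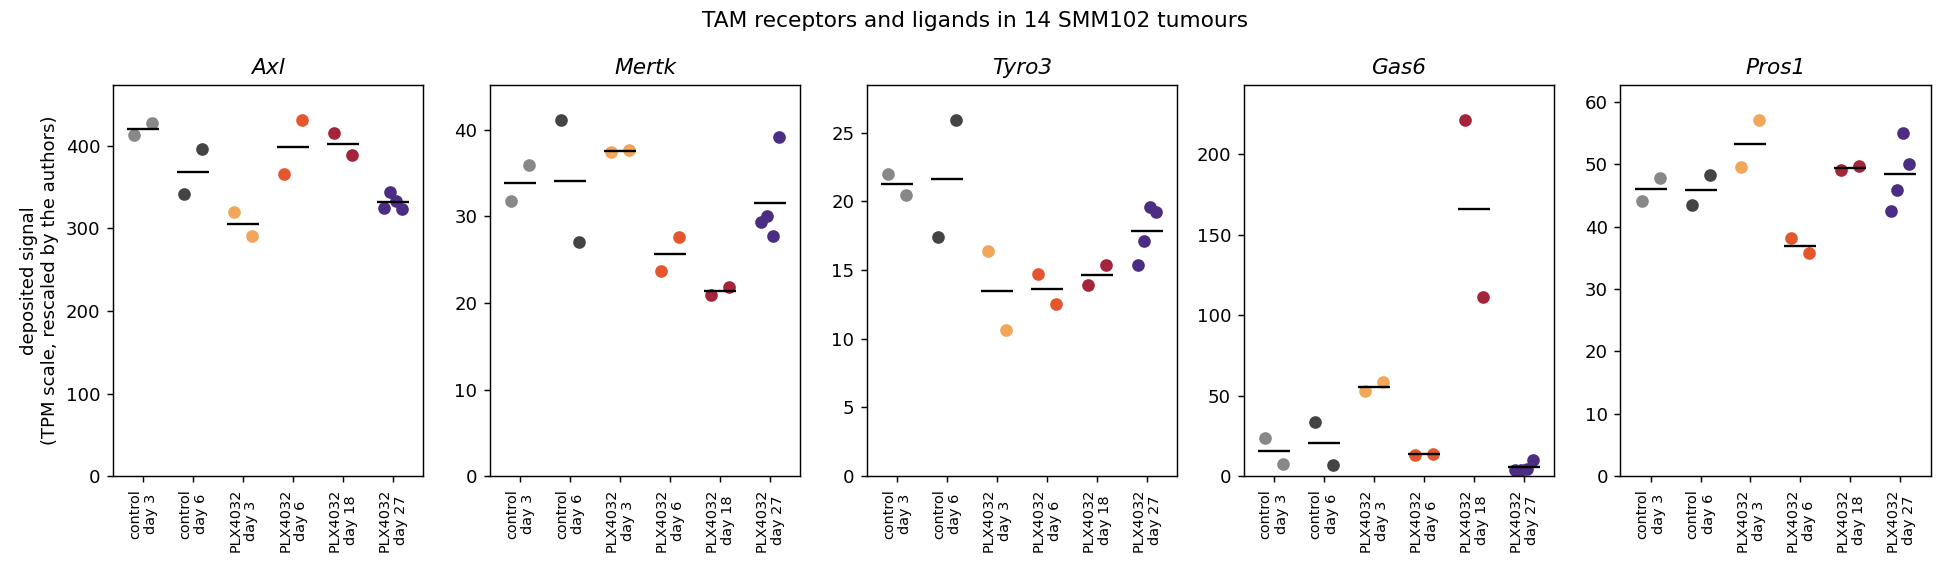
Deposited signal (TPM scale, rescaled by the authors; vertical axis from 0, a separate scale for each gene) of each TAM receptor and ligand in the 14 tumours, by treatment and day; points are tumours and bars are group means. Axl is lowest at PLX4032 day 3, Tyro3 is low at days 3 to 18, and Gas6 is high at days 3 and 18 and low at day 27.

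Axl, at chr7:25757273-25788705 on the minus strand (ENSMUSG00000002602.16; GRCm38), encodes the receptor with the highest affinity for Gas6. Its signal was 413 and 428 in the day 3 controls and 341 and 396 in the day 6 controls. Under the drug its values were 320 and 290.2 at day 3, 365 and 430.5 at day 6, 415 and 388 at day 18, and 325, 344, 333 and 324 at day 27. Both day 3 tumours lay below every control, the day 6 and day 18 values overlapped the controls, and 3 of the 4 day 27 tumours lay just below them.

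Axl fell at day 3, from 395 ± 37.8 (SD, n = 4 controls) to a mean of 305, a log2 change of -0.37 (SE 0.09, 95% interval -0.57 to -0.16, limma adjusted p = 0.0083). It was 1 of 3 members called in that comparison, in which 45.8% of all tested genes were called, so a call there does not set the family apart from other genes. At day 6 and day 18 the Axl changes were 0.01 and 0.03 (limma adjusted p = 0.963 and 0.862), and at day 27 the change was -0.25 (SE 0.08, adjusted p = 0.0825). Within the treated tumours, Axl was 0.38 higher at day 6 than at day 3 (SE 0.11, adjusted p = 0.0341). Without PLX4032 day 3 tumour 2 the day 3 fall was -0.30 with an adjusted p of 0.0957. The day 6 rise over day 3 was lost in 6 of 27 alternative settings, among them those without PLX4032 day 3 tumour 1 (adjusted p = 0.0548) or 2 (0.202), day 6 tumour 2 (0.191) or day 27 tumour 1 (0.054).

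Ordered by group mean, Axl ran from control day 3 (421) through PLX4032 day 18 (402), PLX4032 day 6 (398), control day 6 (369) and PLX4032 day 27 (331) to PLX4032 day 3 (305). Each neighbouring pair overlapped, except that all day 3 values lay below all day 27 values.

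Mertk, at chr2:128698956-128802894 on the plus strand, encodes the receptor through which macrophages engulf dying cells; its locus overlaps the antisense gene Gm14011 and a small nucleolar RNA gene, and the sources used here do not say whether reads were assigned by strand. Its signal was 31.8 and 35.9 in the day 3 controls and 41.1 and 27.0 in the day 6 controls. In PLX4032 tumours it was 37.4 and 37.7 at day 3, 23.7 and 27.7 at day 6, 20.9 and 21.9 at day 18, and 29.3, 30.0, 27.7 and 39.1 at day 27. The day 3 and day 27 values lay within the control range, and the day 18 values below it.

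Mertk fell at day 18, from 33.9 ± 6.00 (SD, n = 4) to 21.4, a log2 change of -0.63 (SE 0.17, 95% interval -0.999 to -0.252, limma adjusted p = 0.0479). It was 1 of 2 members called at day 18, where 7.92% of tested genes were called. That call was lost in 17 of 27 alternative settings, 11 of which leave out 1 tumour: only without control day 6 tumour 2 or day 27 tumours 3 or 4 did it pass. The highest adjusted p was 0.255, without PLX4032 day 18 tumour 1. At day 3 the Mertk change was 0.16 (SE 0.17, adjusted p = 0.47), while the 14 macrophage and monocyte markers had a median change of 2.83 and 13 of the 14 rose. The changes at days 6 and 27 were -0.38 (adjusted p = 0.218) and -0.10 (adjusted p = 0.745). Between treated days, the Mertk differences were -0.53 from day 3 to day 6 (limma adjusted p = 0.082) and 0.53 from day 18 to day 27 (0.0732), neither called; without control day 6 tumour 1 or 2 both were (0.0372 and 0.0336). In order of level, PLX4032 day 3 (37.6), both control groups (34.0 and 33.8) and PLX4032 day 27 (31.5) overlapped from neighbour to neighbour. PLX4032 day 6 (25.7) overlapped control day 6 and lay only barely below all day 27 tumours. Day 6 tumour 2 had 27.653 and day 27 tumour 3 had 27.711. PLX4032 day 18 (21.4) lay below every other tumour.

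Tyro3, at chr2:119797733-119818104 on the plus strand, encodes the receptor best known from the nervous system, and was the least abundant of the receptors. Its signal was 22.0 and 20.5 in the day 3 controls and 17.4 and 25.9 in the day 6 controls. In PLX4032 tumours it was 16.4 and 10.6 at day 3, 14.7 and 12.5 at day 6, 13.9 and 15.3 at day 18, and 15.4, 17.1, 19.6 and 19.2 at day 27. Tyro3 lay below every control in 8 of the 10 treated tumours, and above every control in 0; the 2 within the control range were from day 27.

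Tyro3 fell at day 3, from 21.4 ± 3.52 (SD, n = 4) to 13.5, a log2 change of -0.64 (SE 0.19, 95% interval -1.06 to -0.23, limma adjusted p = 0.0167). At day 6 and day 18 the groups did not overlap either, but the changes of -0.61 and -0.51 did not pass the test (limma adjusted p = 0.0788 and 0.112); without control day 6 tumour 1, both did (0.0225 and 0.0389). At day 27 the change was -0.25 (adjusted p = 0.398). The day 3 call was lost without PLX4032 day 3 tumour 2 (adjusted p = 0.226, change -0.35) and when the compared groups were fitted alone (0.0886). In order of level, both control groups (21.6 and 21.2) overlapped, and PLX4032 day 27 (17.8) overlapped control day 6 but not control day 3. PLX4032 days 18, 6 and 3 (14.6, 13.6 and 13.5) overlapped from neighbour to neighbour, days 18 and 6 lying below every day 27 tumour. Day 18 did so only barely, with 15.346 in day 18 tumour 2 and 15.355 in day 27 tumour 1. The change from day 18 to day 27 was 0.26 (limma adjusted p = 0.381).

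**Figure D2:**
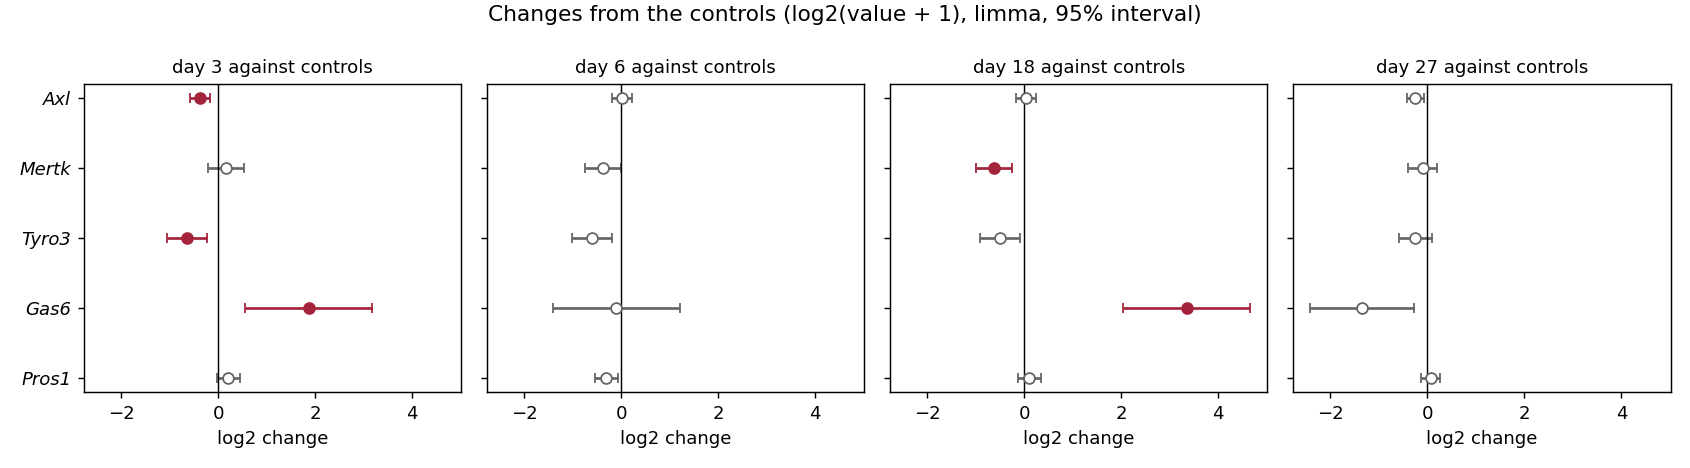
Log2 change of each member from the controls at PLX4032 days 3, 6, 18 and 27 (horizontal axis, log2(signal + 1) scale; points are limma estimates, bars 95% intervals); filled red points have an adjusted p under 0.05. The Gas6 intervals are the widest, and its estimates run from -1.34 at day 27 to 3.35 at day 18.

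Gas6, at chr8:13465374-13494490 on the minus strand, encodes the ligand of all 3 receptors; its locus overlaps Tmem255b on the other strand, whose own signal was at most 2.79. Gas6 was uneven among the controls, at 23.5 and 7.64 at day 3 and 33.8 and 6.82 at day 6. In PLX4032 tumours it was 53.1 and 58.2 at day 3, 13.4 and 13.6 at day 6, 221 and 111 at day 18, and 3.59, 3.82, 4.67 and 10.1 at day 27. All day 3 and day 18 tumours lay above every control, both day 6 tumours lay within the control range, and 3 of the 4 day 27 tumours lay below it.

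Gas6 rose at day 3 to a mean of 55.6 from 17.9 ± 13.1 (SD, n = 4), 3.10-fold by the means and a log2 change of 1.87 (SE 0.59, 95% interval 0.56 to 3.18, limma adjusted p = 0.025). It rose again at day 18 to a mean of 166, 9.26-fold by the means and a log2 change of 3.35 (SE 0.59, 95% interval 2.04 to 4.66, limma adjusted p = 0.00836). At day 6 the change was -0.10 (SE 0.59, adjusted p = 0.951). At day 27 the change was -1.34 (SE 0.48, 95% interval -2.41 to -0.27, adjusted p = 0.136), and 0 of the 5 members were called there, where 6.67% of tested genes were. The day 3 call was lost in 5 of 28 alternative settings: without PLX4032 day 3 tumour 1 (adjusted p = 0.0884) or tumour 2 (0.122), without control day 3 tumour 2 (0.0708) or control day 6 tumour 2 (0.0545), and with the compared groups alone (0.0969). The day 18 call was lost in 2 of 27, without PLX4032 day 18 tumour 1 (0.101) and with the compared groups alone (0.103); without control day 6 tumour 2, the day 27 change was -1.88 and was called (0.0298), and without control day 6 tumour 1 it was -0.80 and was not.

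Between treated days, Gas6 gave the largest changes of the 5 members. From day 3 to day 6 the means were 55.6 and 13.5, a change of -1.97 that did not pass the test (SE 0.69, limma adjusted p = 0.0704), but did in 5 alternative settings, 2 of them without control day 6 tumour 1 (0.0268) or 2 (0.0269). From day 6 to day 18 Gas6 rose by 3.45 (SE 0.69, adjusted p = 0.0332), the 1 member called where 1.51% of tested genes were called, and this call was lost in 14 of 27 alternative settings, among them those without any 1 of the tumours of days 3, 6 and 18 or of day 27 tumours 1 to 3 (adjusted p up to 0.198). From day 18 to day 27 it fell by 4.69 (SE 0.59, 95% interval -6.003 to -3.382, adjusted p = 0.000807), 30.0-fold by the means of 166 and 5.53. That fall passed the test in every one of the 27 alternative settings run, with changes from -5.18 to -3.98 and adjusted p up to 0.0135; it was the 1 member called, where 6.86% of tested genes were called lower. In order of level, PLX4032 day 18, PLX4032 day 3 and the controls did not overlap, the controls (20.3 and 15.6) overlapped each other and PLX4032 day 6 (13.5), and PLX4032 day 27 (5.53) lay below day 6 but overlapped the controls.

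Pros1, at chr16:62854307-62929346 on the plus strand, encodes protein S, the ligand of Tyro3 and Mertk. Its signal was 44.1 and 47.8 in the day 3 controls and 43.6 and 48.3 in the day 6 controls. In PLX4032 tumours it was 49.5 and 57.0 at day 3, 38.2 and 35.7 at day 6, 49.2 and 49.7 at day 18, and 42.6, 45.9, 55.1 and 50.0 at day 27. Pros1 lay just above every control at days 3 and 18, below every control at day 6, and on both sides of them at day 27.

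None of the Pros1 differences from the controls (45.9 ± 2.44, SD, n = 4) passed the test: the changes were 0.21 at day 3, -0.31 at day 6, 0.10 at day 18 and 0.07 at day 27 (limma adjusted p = 0.138, 0.118, 0.546 and 0.718). At day 6, 0 of 5 members were called, where 5.92% of tested genes were. That share was 0.0505%, 0.0189% and 0.152% with the day 27 tumours averaged as 1+2 and 3+4, 1+3 and 2+4, or 1+4 and 2+3. It was 0% with the compared groups alone and 7.95% with columns at one total. With quantile normalisation Pros1 was called lower at day 6 (-0.34, limma adjusted p = 0.0471). Between treated days, Pros1 fell from day 3 to day 6 by 0.51 (SE 0.12, adjusted p = 0.0178), 1 of 2 members called with Axl, where 18.3% of tested genes were called. That call was lost in 4 of 27 alternative settings: without PLX4032 day 3 tumour 2 (adjusted p = 0.136), without day 6 tumour 1 (0.0547) or 2 (0.0862), and with the compared groups alone (0.0836). In order of level, PLX4032 days 3, 18 and 27 (53.3, 49.4 and 48.4) and the controls (45.98 and 45.91) overlapped from neighbour to neighbour, and PLX4032 day 6 (37.0) lay below all of them without overlap.

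Between the control days no member was called (0 of 5), nor was any of the 15841 genes (0%; 886 had an unadjusted p under 0.05 in limma). Axl differed by -0.19 (adjusted p = 0.874) and Gas6 by 0.18 (adjusted p = 0.986). Gas6 nevertheless differed 3.07-fold between the 2 tumours of control day 3 and 4.97-fold between those of control day 6.

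The shares of the receptor and ligand signal do not depend on any single factor by which a whole tumour was scaled; they were not recomputed after quantile normalisation. Axl made up 84.7% to 92.3% of the summed receptor signal in every tumour, with 88.5% ± 2.71 (SD, n = 10) in treated and 87.6% ± 1.49 (n = 4) in control tumours, a difference of 0.88 points (exact permutation test, 2-sided p = 0.581; 0.778 adjusted over 8 comparisons). Without control day 6 tumour 1 the difference was 0.134 points. The Axl share was highest at day 18 (92.3% and 91.2%) and at day 6 (90.5% and 91.5%), and low at day 3 (85.6% and 85.7%). The Tyro3 share was 0.839 points lower in treated tumours, and lower than in every control in 6 of 10 (exact permutation p = 0.102, adjusted 0.408), and the Mertk share differed by -0.0407 points (exact permutation p = 0.974).

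The ligand mixture moved far more. Gas6 made up 34.7%, 13.8%, 43.7% and 12.4% of the ligand signal in the controls, 51.7% and 50.5% at day 3, 25.9% and 27.5% at day 6, 81.8% and 69.1% at day 18, and 7.78%, 7.69%, 7.82% and 16.7% at day 27. Gas6 thus exceeded Pros1 in the day 3 and day 18 tumours and in no other. Over all treated tumours the share was 8.52 points higher than in controls (exact permutation p = 0.583, adjusted 0.778); it was 3.28 points without PLX4032 day 18 tumour 1 and 14.4 points without control day 6 tumour 1. At day 27 it was 10.01% ± 4.49 against 26.1% ± 15.5 in controls, 16.1 points less (exact permutation p = 0.0857, adjusted 0.408; the smallest p that 4 against 4 allows is 0.0286), and 10.3 points less without control day 6 tumour 1. The receptor sum was 1.66 and 2.64 times the ligand sum at day 18 and 3.64 and 2.94 times at day 3, against 5.17 to 8.73 times in the controls.

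**Figure D3:**
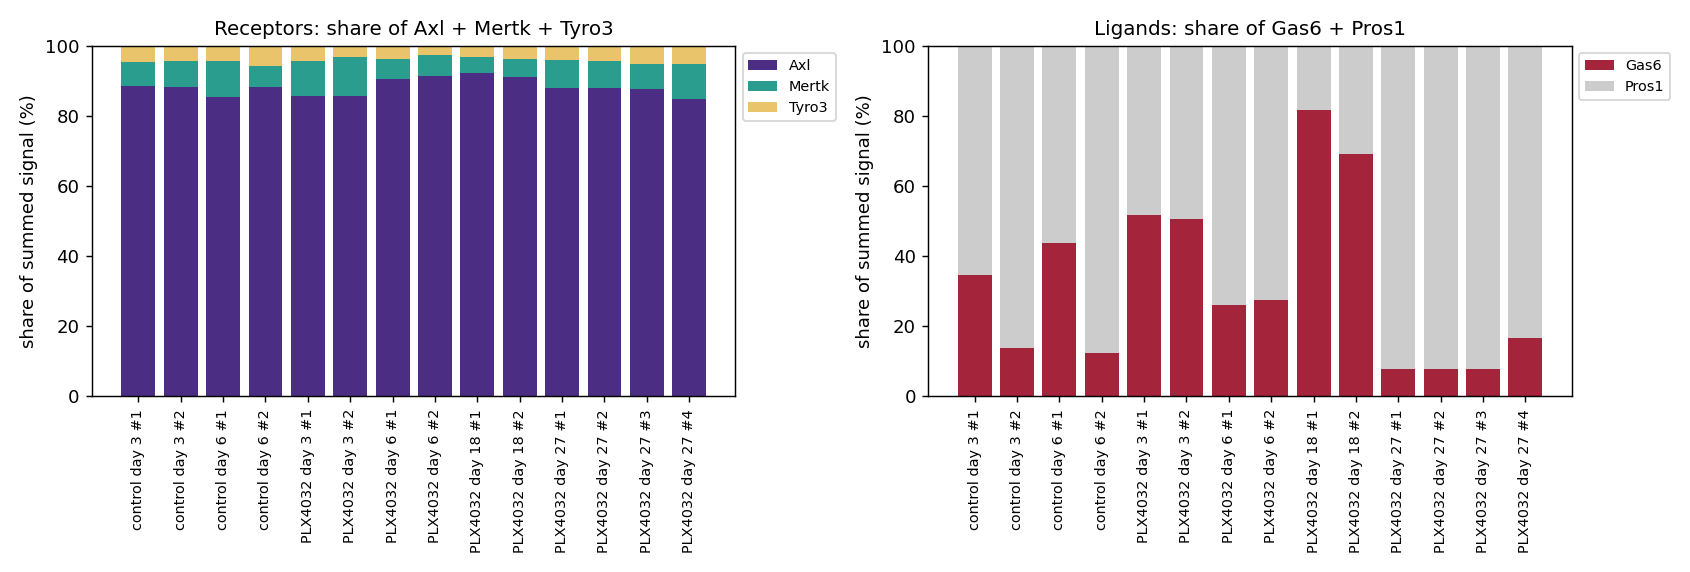
Share of the receptor signal from Axl, Mertk and Tyro3 and of the ligand signal from Gas6 and Pros1 (% of the summed deposited signal) in each of the 14 tumours. Axl makes up 84.7% or more of the receptor signal in every tumour, while Gas6 ranges from 7.69% to 81.8% of the ligand signal.

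Markers of other cell types moved with these changes. In whole tumours, fewer cells of a type and less RNA per cell cannot be told apart, and the same holds for more. At day 3, beside the higher Gas6 and the lower Axl and Tyro3, 13 of 14 macrophage and monocyte markers, 8 of 8 T cell, 5 of 5 NK cell, 8 of 8 dendritic and 4 of 7 fibroblast markers rose, and 1 fibroblast marker, Pdgfra, fell. The summed fibroblast markers were 3066 and 3614 at day 3, against 1933 to 2465 in the controls. Endothelial (6 of 7), Schwann cell (2 of 3) and adipocyte (2 of 5) markers also rose at day 3. Of all tested genes, 24.9% were called higher and 20.8% lower at day 3. Adipocyte markers then summed to 111 and 69.5, against 14.3 to 55.3 in the controls. Endothelial markers summed to 131 and 201, against 52.6 to 105.5. At day 18, beside the highest Gas6, all 5 adipocyte markers in the table rose with a median log2 change of 5.60, and fibroblast markers summed to 3641 and 3233, with 2 of 7 called higher. The day 18 macrophage markers summed to 2331 and 1521, with 2 of 14 called higher, where 5.42% of all tested genes were. Skeletal muscle markers summed to 26.1 in day 18 tumour 1 and 1307 in tumour 2, against 22.5 to 202 in the controls, and 2 of 3 Schwann cell markers rose.

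From day 3 to day 6, Axl rose and Pros1 fell. Called lower there were 4 of 14 macrophage, 2 of 7 fibroblast, 2 of 7 endothelial and 2 of 3 Schwann cell markers. Of adipocyte and melanocyte markers, 1 of 5 and 1 of 3 were lower. Of all tested genes, 18.3% were called in either direction, so most of these counts are not far from that share. The macrophage sums were 1716 and 3244 at day 6. Against the controls, 7 of 8 T cell, 3 of 5 NK cell, 2 of 8 dendritic and 1 of 14 macrophage markers were higher at day 6. So were 1 of 2 B cell and 1 of 3 Schwann cell markers and the leukocyte gene Ptprc, while 2 of 7 fibroblast markers were lower. Of all tested genes, 4.49% were called higher and 1.43% lower, and 0% were called with the compared groups alone. The day 6 tumours differed, with T cell sums of 87.3 and 271 and NK cell sums of 75.7 and 300.

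At day 27, where Gas6 was lowest, the macrophage markers summed to 433, 587, 609.5 and 1107, the adipocyte markers to 12.4, 14.4, 20.9 and 8.73, and the fibroblast markers to 1868, 2165, 1986 and 1829. The tumour with the highest day 27 Gas6, tumour 4, had the highest macrophage and the lowest adipocyte and fibroblast sums of the 4. From day 18 to day 27 all 5 adipocyte markers fell, with 4 of 14 macrophage and 3 of 7 fibroblast markers. Called lower too were 3 of 5 skeletal muscle, 2 of 3 Schwann cell and 2 of 8 T cell markers. Of platelet, dendritic and endothelial markers, 1 of 3, 1 of 8 and 1 of 7 were lower. Of all tested genes, 6.86% were called lower there. Among the controls, the tumours with Gas6 of 23.5 and 33.8 had macrophage sums of 1537 and 1404 and adipocyte sums of 30.8 and 55.3, and those with Gas6 of 7.64 and 6.82 had macrophage sums of 714 and 574 and the lowest adipocyte sums. No marker of these lists was at 0 throughout any group. Their part in the member changes was not tested.

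**Figure D4:**
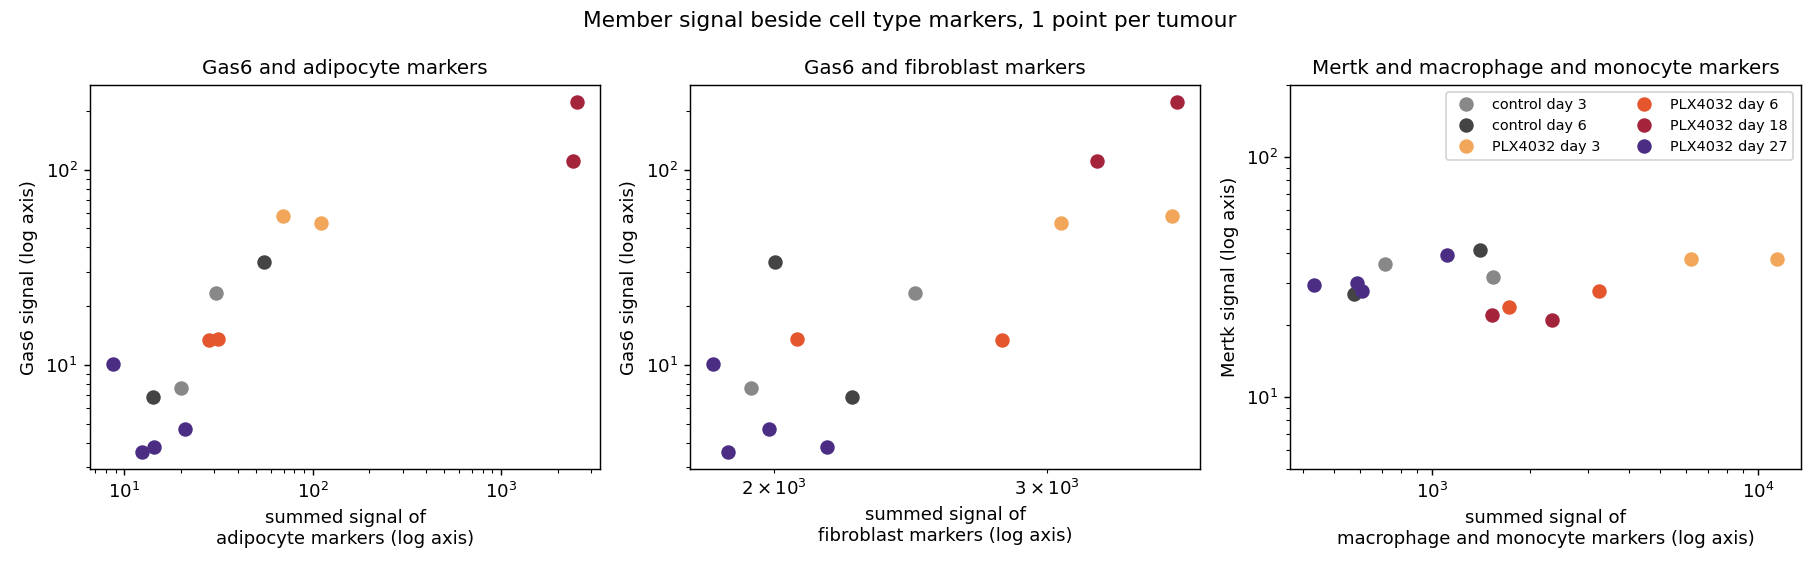
Gas6 signal against the summed signal of adipocyte and of fibroblast markers, and Mertk signal against that of macrophage and monocyte markers, in the 14 tumours (both axes log; points are tumours, coloured by group). The day 18 tumours stand alone at adipocyte sums of 2529 and 2412 with the highest Gas6, and Mertk at day 3 (37.4 and 37.7) is within the control range at macrophage sums of 6236 and 11436.

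Genes that work beside the TAM system were described from lists, with the all-gene median change of 0.021, 0.012, 0.073 and 0.006 at days 3, 6, 18 and 27 for reference. Of all tested genes, 24.9% were called higher and 20.8% lower at day 3, 4.49% and 1.43% at day 6, 5.42% and 2.50% at day 18, and 3.58% and 3.09% at day 27. The high macrophage and monocyte marker sums of day 3 accompanied every day 3 count of the lists, and their part in the counts was not tested. Of 18 tested receptors and bridging proteins that recognise dying cells by other routes, 10 rose and 1 fell at day 3 (median 1.498). Timd4, a phosphatidylserine receptor of macrophages, rose from 0.166 to 3.36 (log2 change 1.90, limma adjusted p = 1.52e-05), and the myeloid receptor Cd300lb from 4.07 to 18.9 (1.98, adjusted p = 0.000416). Scarf1, a scavenger receptor, rose from 3.56 to 18.3 (2.08, adjusted p = 0.00121). Counts were 1 higher and 2 lower at day 6, 2 and 1 at day 18, and 1 and 3 at day 27; without control day 6 tumour 1, 6 were higher at day 6 and 7 at day 18. Named after their values were seen, Cd36, a scavenger receptor that is also abundant in adipocytes, rose by 3.52 at day 18 (adjusted p = 0.000789) with Timd4 (1.27), and Cd36 (-1.65), Cd300lb (-1.14) and Lrp1 (-0.67) fell at day 27. These 3 falls became 1, 0 and 1 when the day 27 tumours, which come from 2 mice, were averaged in pairs as 1+2 and 3+4, 1+3 and 2+4, or 1+4 and 2+3. Cd36 was lost in 7 and Cd300lb in 5 of 27 alternative settings.

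Of 12 tested LXR, RXR and PPAR nuclear receptors and LXR targets, a group in which Mertk is itself known as an LXR target in macrophages, 9 rose and 0 fell at day 3 (median 1.42). Nr1h3, which encodes LXR alpha, rose from 5.51 to 43.7 (2.88, limma adjusted p = 0.0007) and the cholesterol exporter Abcg1 from 8.34 to 74.6 (3.27, 0.000715), beside the Mertk change of 0.16 above. The counts were 2 and 0 at day 6, 1 and 0 at day 18 (Pparg, 3.00, named after its value was seen) and 1 and 1 at day 27. YAP/TAZ, TEAD and AP-1 are known to act on Axl transcription. Of 11 of these factors and their targets, 0 rose and 6 fell at day 3 (median -0.39), when Axl fell. All 6 were factors: Fosl1, Tead4 and Wwtr1, with Yap1, Tead1 and Jun named after their values were seen. The listed targets Ccn1, Ccn2 and Ankrd1 were not called at day 3. Fosl1, an AP-1 subunit, fell from 125 to 29.2 (-2.08), Tead4 from 19.4 to 4.98 (-1.75) and Wwtr1, which encodes TAZ, from 97.1 to 43.3 (-1.13). At day 6 and day 18, with Axl at control level, Wwtr1 was the gene called lower each time (-0.76 and -0.69; lost in 15 of 28 and 15 of 27 alternative settings). At day 18 the YAP target Ccn1 rose by 1.46 (limma adjusted p = 0.003; lost in 0 of 27); both were named at these days after their values were seen. At day 27 the counts were 0 and 0.

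Of 18 signalling proteins below the receptors, 4 rose and 6 fell at day 3 (median -0.15). The adaptor Grb2 rose from 63.2 to 131 (1.04), Elmo1, an engulfment adaptor, rose by 1.76, and Ptk2, which encodes focal adhesion kinase, fell by 0.68; without PLX4032 day 3 tumour 2, 3 genes rather than 6 were lower. Of 9 listed genes of the protein C system, coagulation and complement, 5 rose and 1 fell (median 0.82). Those that rose include F10 (1.62 to 19.6) and F7 (0.529 to 8.10), the coagulation factors X and VII. They also include C4b (3.62, named after its value was seen), a complement gene and not a coagulation partner of Pros1. Of the vitamin K genes, needed to carboxylate both ligands, Aifm2 rose by 0.64 and Vkorc1l1 fell by 0.58. Of 8 genes of phosphatidylserine exposure, 2 rose (Atp8a1, 1.92, and Atp11b, 0.42, both flippase genes) and 1 fell (Plscr1, -0.37), with a median of 0.006. Of 5 shedding genes, Rhbdf2 (1.51) and Adam17 (0.58), whose protease cleaves Axl and Mertk from the cell surface, rose and Rhbdf1 (-0.55) fell (median 0.21). At days 6, 18 and 27 these 5 lists had between 0 and 2 genes called in each direction.

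Of 11 genes of the undifferentiated melanoma state with which Axl is usually grouped, and its differentiated counterpart, 3 rose and 3 fell at day 3 (median 0.32). Sox9 and Wnt5a, known from the undifferentiated state, fell by 1.15 and 0.79, and Mitf, the melanocyte master regulator, rose from 3.56 to 8.46 (1.04). The other calls, named after their values were seen, were Loxl2 (0.61) and Pmel (0.35) higher and Sox2 (-0.78) lower. Without PLX4032 day 3 tumour 2, 0 of these genes were called in either direction. At day 6, 0 rose and 0 fell. At day 18, 1 rose and 0 fell. The 1 was Ngfr (2.33, limma adjusted p = 0.0497), lost in 22 of 26 alternative settings and named after its value was seen. At day 27, with an Axl change of -0.25 that was not called, Wnt5a (0.85, limma adjusted p = 0.0145), Sox10 (1.15) and Egfr (0.90) were called higher and Loxl2 (-0.81) lower, the last 3 named after their values were seen. The 3 higher calls were all lost, 0 of 3 remaining, in each of the 3 ways of averaging the day 27 tumours in pairs, and the lower call was lost in 1 of them.

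**Figure D5:**
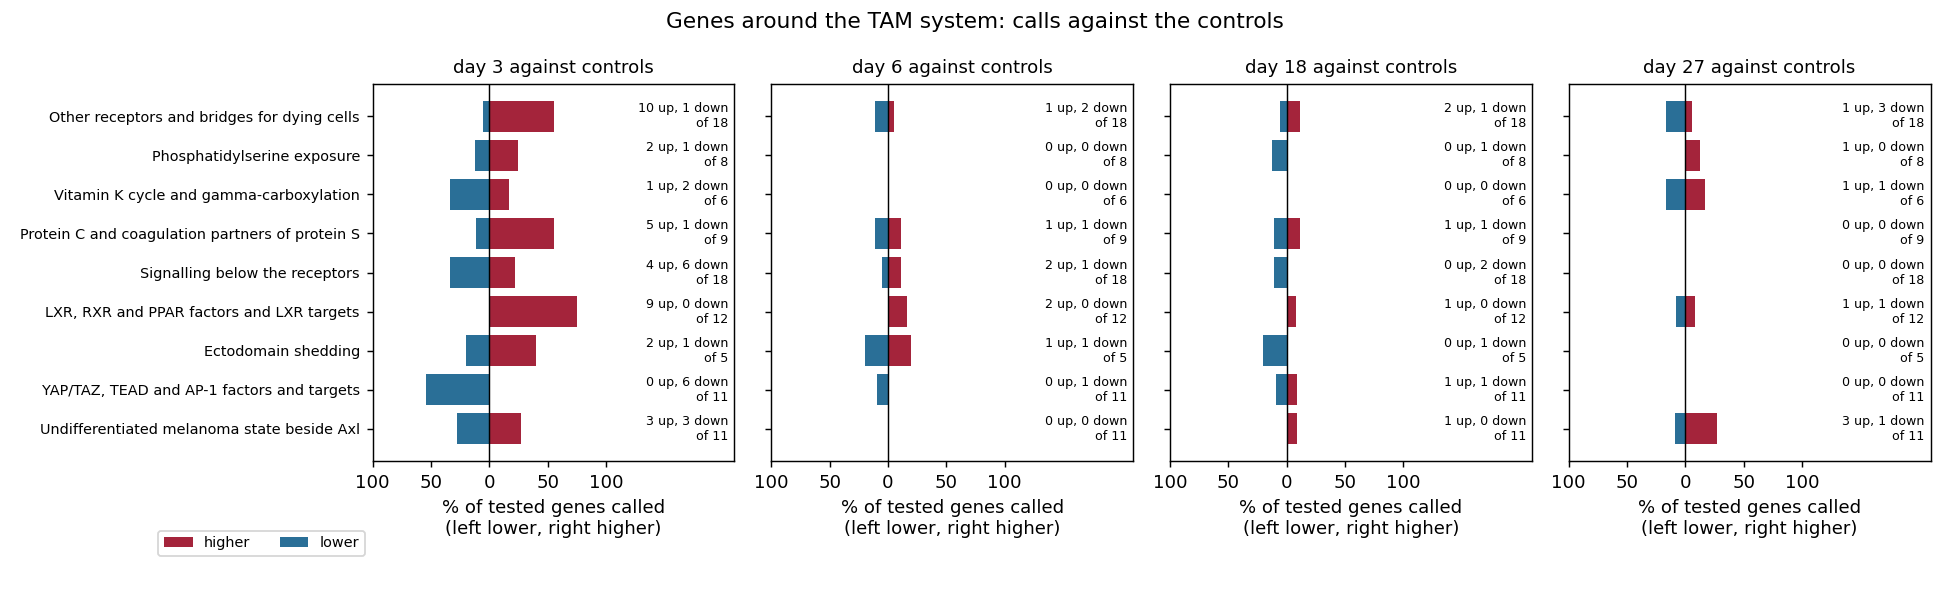
Percentage of the tested genes of each list called higher (right, red) or lower (left, blue) against the controls at days 3, 6, 18 and 27 (limma, adjusted p under 0.05), with the counts printed at the right. Day 3 has the most calls, with 9 of 12 LXR, RXR and PPAR genes higher and 6 of 11 YAP/TAZ, TEAD and AP-1 genes lower. The list labelled as partners of protein S also holds the complement gene C4b.

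The genes whose signal followed each member most closely were found by Pearson correlation of log2(signal + 1) over the 14 tumours among 10481 genes; the tumours share treatment, day and cell makeup, so these values are descriptions. For Gas6 they were Prg4 (r = 0.965), which encodes the lubricating proteoglycan lubricin, Cd36 (0.956) and Ccdc80 (0.949), a secreted matrix protein known from adipose tissue. Cd36 went from a mean of 4.76 in controls to 18.1 at day 3, 59.5 at day 18 and 0.689 at day 27, and Ccdc80 from 13.7 to 37.6, 61.3 and 6.21. For Axl they were Ppp1r10 (0.902), Rpn2 (0.882) and Prim2 (0.86), and for Mertk Zfp408 (0.934), Kansl3 (0.88) and Tmem147os (0.862). For Tyro3 they were Maml3 (0.956), Mtmr11 (0.939) and the ubiquitin ligase gene Nedd4 (0.933), whose mean went from 515 in controls to 345, 368, 349 and 452 at days 3, 6, 18 and 27. For Pros1 they were Wwp1 (0.911), Rab40c (0.875) and Rab11fip5 (0.868). Over the 6 group means the same genes had r from 0.896 to 0.996. Between members, the strongest correlation over the 14 tumours was -0.493, between Axl and Mertk.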

How the data were processed

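Per the labels' protocols, Trizol RNA went into TruSeq libraries. For the 14 tumours the authors deposited 1 expression table; kallisto, sleuth and the mm10 build are named per the submitters' processing notes, and versions are not given in the sources used here. Its values are labelled TPM, but the deposited columns sum to 879385 to 1084401, 5 of 14 above the total that TPM allows, so they are treated as a rescaled signal; the planned test did not change. Column names gave each tumour's group, not its animal. Symbols were matched to official ones ignoring case (17859 of 18481).

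Values were tested as log2(signal + 1) with limma 3.58.1 in R 4.3.3: means of 6 groups, a variance trend, 8 residual degrees of freedom, genes at 1 or more in at least 2 tumours, 2-sided tests with Benjamini-Hochberg adjustment over 15841 genes. The fit was tested on simulated data. Shares were compared by exact permutation. Alternatives changed the pseudocount, filter, scaling, trend, weights, day 27 averaging, controls, groups fitted and tumours left out.

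The members and lists were chosen with earlier results of these data known. Named genes are all members, the 3 genes correlating best with each (mean of 5 or more) and, of each list, up to 3 called genes with the smallest day 3 p. 1 result is not reported here. Gene positions are from GENCODE M21 (GRCm38) and promoters from RefSeq.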

Additional observations from a re-analysis of the deposited data

Results flagged for a closer look

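In 4 cases single tumours lay far from the rest of their group, judged by the gap to the nearest tumour over the group's range; chance flags about 1 in 20 groups. PLX4032 day 27 tumour 4 had a Gas6 signal of 10.1, against 3.59 to 4.67 in the other 3 tumours. The same tumour had the lowest Axl share of the receptor signal, 84.7%, and the highest Gas6 share of the ligand signal, 16.7%. Among the controls, the Axl share was 85.4% in day 6 tumour 1 and at least 88.2% in the rest.

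In all, 4 differences between treated days passed the test of the difference itself. Axl was 0.38 higher on the log2 scale at day 6 than at day 3, and Pros1 was lower, with a change of -0.51. Gas6 differed by 3.45 between day 18 and day 6 and by -4.69 between day 27 and day 18.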

How the results depend on the processing

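No member call changed sign. None of the reversed changes was called in any setting. With all tumours kept, those for Axl were -0.01 and -0.03 at day 6 (median-of-ratios, quantile), -0.01, -0.04 and -0.10 at day 18 (columns at one total, median-of-ratios, quantile), and -0.10, -0.02 and -0.07 for day 18 against day 6 (same order). For Pros1 they were -0.0023 at day 27 (sample weights), and 0.09, 0.02 and 0.06 for day 27 against day 18 (the 3 scalings in the same order). For Tyro3 the day 18 against day 6 change was -0.01 (one total). Between control days, Mertk was 0.01 and Pros1 0.04 (quantile), and Tyro3 -0.05 and -0.02 (one total, median-of-ratios).

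Of the 5 members, 3 were called at day 3 and 1 with the compared groups alone. At day 6, 1 rather than 0 was called with quantile normalisation. At day 18, 2 became 1 with a pseudocount of 5, no filter, columns at one total, no trend or tumours averaged as 1+3 and 2+4, and 0 with the compared groups alone. For day 6 against day 3, 2 became 1 with that averaging and with the compared groups alone. For day 18 against day 6, 1 became 0 with a pseudocount of 0.1, all 3 averagings and the compared groups alone. For day 27 against day 18, 1 became 2 (quantile) and 3 (sample weights).

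Leaving out each tumour in turn gave 0 to 3 calls at day 3, 0 to 1 at day 6, 0 to 2 at day 18, 0 to 1 at day 27, 0 to 4 for day 6 against day 3, 0 to 1 for day 18 against day 6, and 1 to 2 for day 27 against day 18. Changes then ranged for Axl from -0.11 to 0.13 at day 6, -0.02 to 0.08 at day 18 and -0.10 to 0.14 for day 18 against day 6; for Gas6 from -0.64 to 0.44 at day 6; for Mertk from -0.25 to 0.05 at day 27; for Tyro3 from -0.25 to 0.32 for day 6 against day 3 and -0.01 to 0.21 for day 18 against day 6; and for Pros1 from -0.10 to 0.02 for day 27 against day 18. Between control days they ranged from -0.31 to 0.28 (Mertk), -0.27 to 0.27 (Tyro3), -0.90 to 1.26 (Gas6) and -0.08 to 0.07 (Pros1). Share differences ranged from -0.578 to 0.842 points (Mertk, all treated), -0.264 to 0.247 (Tyro3, day 27) and -1.31 to 0.198 (Axl, day 27).

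Over all genes, calls moved from 7249 at day 3 to between 4345 and 8075, from 937 at day 6 to 0 to 2145, from 1254 at day 18 to 178 to 2220, from 1056 at day 27 to 162 to 1184, from 2892 for day 6 against day 3 to 1003 to 3427, from 239 for day 18 against day 6 to 57 to 322, from 1592 for day 27 against day 18 to 472 to 3209, and from 0 between control days to 0 to 31. Quantile normalisation moved the day 3 median of all genes from 0.021 to -0.15; Axl was then -0.46, Tyro3 -0.77 and Gas6 1.76, all still called. List counts under the alternatives were added after seeing the data.

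No paired analysis was possible because the columns carry only a number within each group, not tied to animals. Depth is unknown, so no counting error can be given, and groups of 2 limit every comparison. The cause of each change with processing was not tested.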
